A study of Mus musculus with 2 samples.

Results

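Basal cells of the mouse mammary gland with high counts of Birc3, Malt1, Nfkbie, Tnip1 and Vcam1 were described in the library labelled Fgd5-ko. Cells were taken from the authors' table of cells. A cell was called basal where Krt5, Krt14, Acta2 and Tagln held at least 0.5% of its UMIs (unique molecules counted) and Krt5 and Krt14 together exceeded Krt8 and Krt18. Basal cells were then selected on the measured level of the 5 genes: those in the top 10% by summed CPM (the UMIs of a gene scaled to 1000000 UMIs of the cell) were kept. This gave 567 cells of 5667 basal cells, among 6064 listed cells of this library and 12652 of the series. Each selected cell was set beside the 3 other basal cells of the same library nearest to it in total UMIs, 1701 cells in all. The levels of the 5 genes in the selected cells were fixed by this choice and are a description.

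The study profiled mammary gland cells of C57BL/6 mice, sorted as CD24high CD29+, with a droplet-based 3' RNA kit, and compared a library with the genotype label WT with another labelled Fgd5-ko. Fgd5 activates the small GTPase Cdc42, a regulator of the actin skeleton. The title of the latter library carries the word cko. The sources used here do not give the Cre driver, the deleted part of the gene, the meaning of P4 in both titles, the age of the mice or their number per library. Fgd5 itself went against the labels, at 4.01 CPM in basal cells of the library labelled Fgd5-ko and 0.824 CPM in those of the library labelled WT, and 3' tags outside a deleted part would check nothing. The deposited matrices held 136697801 UMIs (labelled Fgd5-ko) and 60566053 UMIs (labelled WT), and 27 and 21 of the listed barcodes occurred in the other library too. With 1 library per group no difference has a replicate check and no test was made. Cells are not replicates, and intervals given below are exact, at 95%, for counting error alone.

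NF-kB is a family of transcription factors (Rela, Relb, Rel, Nfkb1 and Nfkb2) held in the cytoplasm by inhibitor proteins of the I-kappa-B family. Signals from TNF, interleukin 1 and pattern recognition receptors release them, and the genes they switch on include their own inhibitors, so that the response limits itself. The 5 genes of the rule belong to this circuit: Birc3 is a ubiquitin ligase at the TNF receptor, Malt1 a protease and scaffold upstream of NF-kB, Nfkbie (I-kappa-B epsilon) an inhibitor, Tnip1 a partner of the deubiquitinase A20, and Vcam1 an adhesion molecule that is a classic target. Basal cells are the contractile outer layer of the mammary epithelium.

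NF-kB proteins bind a short DNA element, the kappa B site. The windows from 250 bases before to 50 bases after gene starts in the RefSeq annotation (GRCm38.p6) were searched on both strands for the kappa B consensus by name, overlapping matches included. Of 32851 windows, 1480 (4.51%) held a match. By gene, with any of its windows, this was 6.68% of 6122 measured genes with a window, 19.9% (27 of 136) of those at least 1.5-fold higher in the selected cells and 5.56% (6 of 108) of those at least 1.5-fold lower. Of the rule genes, Birc3, Nfkbie and Tnip1 had a window, and Nfkbie and Tnip1 held a match. The 250 bases before the start are shown for these 2 genes and for 3 genes outside the rule that were higher in the selected cells and held a match, chosen after their values were seen. Sequences are from RefSeq, 5′ to 3′ on the strand of the gene, and capitals mark the bases of the matches.
Nfkbie, chr17:45555450-45555699, plus strand: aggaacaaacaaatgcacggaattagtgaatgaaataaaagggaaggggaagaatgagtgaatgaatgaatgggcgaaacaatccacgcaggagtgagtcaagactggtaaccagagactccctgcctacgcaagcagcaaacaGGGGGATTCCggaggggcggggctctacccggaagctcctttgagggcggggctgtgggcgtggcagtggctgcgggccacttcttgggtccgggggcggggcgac
Tnip1, chr11:54962941-54963190, minus strand: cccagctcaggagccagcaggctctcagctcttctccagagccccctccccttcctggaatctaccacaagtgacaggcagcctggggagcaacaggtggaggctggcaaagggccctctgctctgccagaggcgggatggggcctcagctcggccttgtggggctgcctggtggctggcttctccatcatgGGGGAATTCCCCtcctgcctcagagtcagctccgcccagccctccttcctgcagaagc
Nfkbia, chr12:55492648-55492897, minus strand: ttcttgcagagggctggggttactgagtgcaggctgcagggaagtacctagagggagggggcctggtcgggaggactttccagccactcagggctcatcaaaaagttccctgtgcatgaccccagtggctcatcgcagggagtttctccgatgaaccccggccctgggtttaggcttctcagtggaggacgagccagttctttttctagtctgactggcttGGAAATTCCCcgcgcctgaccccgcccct
Nfkb2, chr19:46304487-46304736, plus strand: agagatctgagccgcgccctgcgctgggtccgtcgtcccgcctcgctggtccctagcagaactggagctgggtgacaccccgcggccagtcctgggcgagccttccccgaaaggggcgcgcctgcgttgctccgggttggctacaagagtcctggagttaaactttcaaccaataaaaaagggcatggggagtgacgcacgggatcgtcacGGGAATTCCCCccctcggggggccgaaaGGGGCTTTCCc
Cxcl10, chr5:92348890-92349139, minus strand: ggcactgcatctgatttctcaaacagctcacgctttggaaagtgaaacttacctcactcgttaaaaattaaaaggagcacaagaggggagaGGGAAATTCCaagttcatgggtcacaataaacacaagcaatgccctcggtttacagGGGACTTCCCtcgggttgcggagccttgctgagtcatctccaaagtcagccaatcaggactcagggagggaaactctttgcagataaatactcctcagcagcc
Counted back from the gene start, the match began at -106 in Nfkbie and at -29 in Nfkbia. The Tnip1 capitals are 3 overlapping matches, the first at -58, and this window of Nfkb2, which has several starts, held 3 matches, of which those at -39 and -38 overlap. Cxcl10 held matches at -159 and -103. A match describes these letters and does not show binding.

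The 5-gene sum ran without a break through the cutoff. The lowest selected cell stood at 582 CPM and the highest cell outside at 581 CPM. Selected cells had a median of 769 CPM and reached 3303 CPM, other basal cells had a median of 165 CPM, and 761 basal cells (13.4%) had none of the 5 genes counted. Within 10% of the cutoff lay 103 selected and 149 other cells. The selected cells are a range cut from this sum by the rule, and whether they form a type of their own was not tested.

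Vcam1 gave the largest share of the UMIs behind the sum, 39.2%, ahead of Malt1 (22.8%), Tnip1 (15.1%), Birc3 (14.8%) and Nfkbie (8.02%). Vcam1 stood at 336 CPM in selected and 64.4 CPM in matched cells, and was counted in 92.2% of selected cells (89.7 to 94.3) against 51.5% (49.1 to 53.9). Per selected cell its quartiles were 130, 272 and 485 CPM, and the highest cell reached 1971 CPM. Malt1 stood at 195 and 55.6 CPM, Tnip1 at 130 and 28.0 CPM, Birc3 at 127 and 34.3 CPM and Nfkbie at 68.6 and 16.8 CPM. As a description of cells chosen on this sum, at least 4 of the 5 genes were counted in 369 selected cells (65.1%) and in 167 matched cells (9.82%). Only 13 selected cells (2.29%) held a single rule gene.

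Whether the 5 genes go together was measured by leaving each out of the rule and reading it in the top 10% by the other 4. Each left-out gene was higher in the cells chosen without it, in both libraries. Tnip1 in the library labelled Fgd5-ko stood at 96.5 CPM against 31.6 CPM in matched cells, a log2 ratio of 1.61 (1.47 to 1.75), and Nfkbie at 53.9 against 17.9 CPM (1.59, 1.41 to 1.77). Vcam1 stood at 196 against 79.1 CPM (1.31, 1.22 to 1.40) and Birc3 at 90.3 against 38.2 CPM (1.24, 1.11 to 1.37). Malt1 had the smallest log2 ratio, at 106 against 63.6 CPM (0.74, 0.62 to 0.85), an interval that lies below those of the other 4 genes. The log2 ratios in the library labelled WT were 1.47 for Nfkbie, 1.36 for Tnip1, 0.87 for Birc3, 0.80 for Vcam1 and 0.66 for Malt1, with all 5 intervals above 0. Over pairs of genes, cells of like total UMIs held both genes more often than the product of the single shares gives, from 1.04 times for Malt1 and Vcam1 to 1.29 times for Nfkbie and Tnip1.

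**Figure D1:**
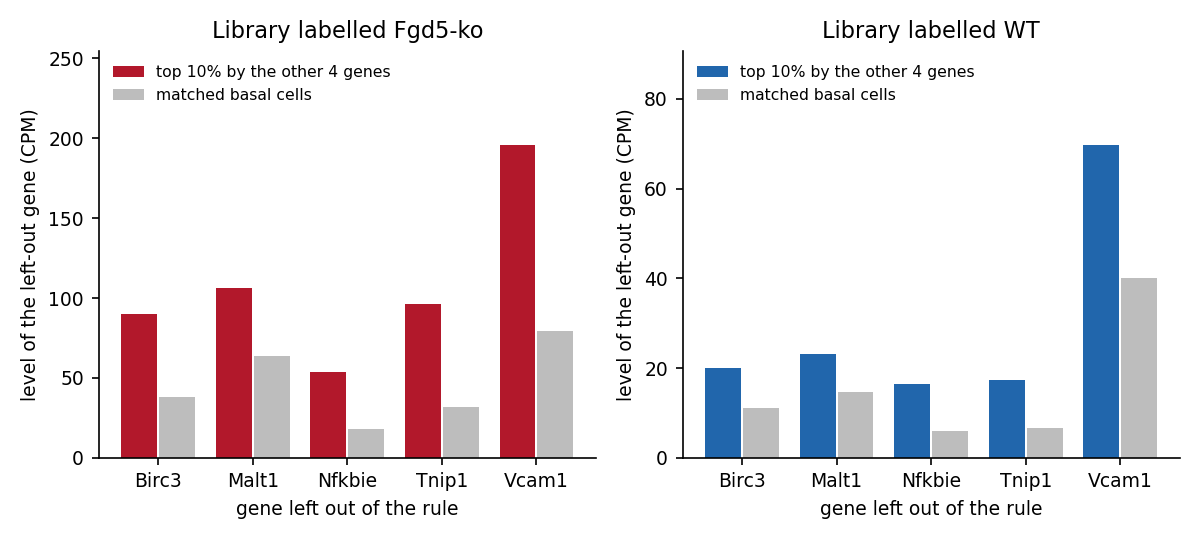
Level of each rule gene (CPM, linear axis from 0) in the top 10% of basal cells by the other 4 genes (coloured bars) and in cells matched on total UMIs (grey bars), for each library. In the library labelled Fgd5-ko the gap is widest in ratio for Tnip1 (96.5 against 31.6 CPM) and narrowest for Malt1 (106 against 63.6 CPM).

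Outside the rule, selected cells differed from matched cells in both directions in a small part of the genes. Among 7731 genes whose mean reached 10 CPM, 189 (2.44%) were at least 1.5-fold higher in the selected cells, 145 (1.88%) were at least 1.5-fold lower and 7397 lay between, with a median log2 ratio of 0.0232. From a mean of 5 CPM upward, the minimum for members of gene lists below, 279 of 9576 genes (2.91%) were higher and 237 (2.47%) lower by this measure. The counts rest on UMIs summed over cells. The intervals of all 334 genes past the fold at 10 CPM lay away from 0. With this many UMIs the fold and the minimum level bring that about, so it adds no support. The intervals leave out the spread between cells.

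Transcripts of the NF-kB proteins were higher. Of the 5 subunit genes 3 were at least 1.5-fold higher and none lower, with a median log2 ratio of 0.73. Relb, a subunit of the noncanonical pathway, stood at 89.1 CPM in selected and 35.2 CPM in matched cells (log2 ratio 1.34, 1.21 to 1.47) and was counted in 68.1% against 38.2% of cells. Its partner Nfkb2 stood at 43.7 against 20.3 CPM (1.11, 0.92 to 1.29), and Rel at 101 against 61.1 CPM (0.73, 0.61 to 0.84). Rela (67.0 against 50 CPM) and Nfkb1 (94.0 against 71.0 CPM), the usual canonical pair, were within 1.5-fold at log2 ratios of 0.42 and 0.40.

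Among inhibitors and feedback genes the main I-kappa-B and A20 were highest in ratio. Of 14 measured genes 3 were at least 1.5-fold higher and 11 within 1.5-fold, with a median log2 ratio of 0.38. Nfkbia, the main I-kappa-B, stood at 1093 against 503 CPM (1.12, 1.08 to 1.16). Tnfaip3, the deubiquitinase A20 with which Tnip1 works, stood at 38.0 against 18.4 CPM (1.05, 0.85 to 1.24), and Bcl3, a nuclear I-kappa-B relative, at 61.6 against 36.4 CPM (0.76). Of the 14 genes, 11 had a log2 ratio above 0, among them Cyld within 1.5-fold (52.9 against 36.7 CPM, 0.53, 0.37 to 0.68). Nfkbiz (-0.17) and the autophagy receptor gene Tax1bp1 (-0.24) were below 0. Of 30 genes of TNF and interleukin 1 receptor signalling 5 were higher and 25 within 1.5-fold. The 5 were Traf3 (0.89), Tank (0.81), the Birc3 relative Birc2 (102 against 59.7 CPM, 0.77), the kinase gene Map3k8 (0.66) and Traf2 (0.59), whereas the kinases Ikbkb (0.12) and Chuk (0.04) lay near 0. Of 24 cytokine and TNF family receptors 2 were higher, the pattern receptor Tlr2 (19.0 against 10.2 CPM, 0.89) and the interferon gamma receptor chain Ifngr1 (70.0 against 42.5 CPM, 0.72). Tnfrsf1a, the main TNF receptor, was at -0.17.

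Chemokines and a few other secreted or surface proteins were higher in the selected cells. Of 10 measured chemokines 6 were at least 1.5-fold higher and none lower, with a median log2 ratio of 0.91. Cxcl16, a transmembrane chemokine, stood at 86.2 against 39.1 CPM (1.14, 1.01 to 1.27) and was counted in 63.8% against 39.4% of cells. Cx3cl1, likewise membrane-bound, stood at 91.7 against 48.9 CPM (0.91), and the monocyte attractant Ccl2 at 143 against 76.2 CPM (0.91). The other 3 came from few cells. Cxcl10, an interferon-induced attractant of T cells, stood at 32.6 against 8.81 CPM (1.89, 1.64 to 2.13), but 6.35% of selected cells held it and a single cell gave 26.4% of its UMIs. A single cell gave 35.6% of the UMIs of Ccl7 (1.23) and 16.3% of those of Cxcl2 (0.98). Without the richest cell of each group, an alternative chosen after seeing the data, the log2 ratios were 1.71 for Cxcl10, 0.90 for Ccl7 and 0.95 for Cxcl2. With Vcam1 left out of the rule Ccl7 was at 0.06 and Cxcl10 at 0.72.

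Of 4 measured cytokines Csf1, the macrophage growth factor, was higher, at 75.5 against 43.4 CPM (0.80). The TNF family member Cd70 stood at 31.8 against 12.5 CPM (1.35, 1.12 to 1.58) and Has2, a hyaluronan synthase, at 75.8 against 29.5 CPM (1.36, 1.22 to 1.51). Among 14 adhesion molecules of the immunoglobulin family other than Vcam1, Chl1 was past the fold (7.64 against 2.55 CPM, 1.58). Icam1, often named beside Vcam1 as an NF-kB target, was high in nearly all cells and had a smaller ratio, at 594 against 405 CPM (0.55, 0.51 to 0.60). Of 11 survival genes only Sod2, the mitochondrial superoxide dismutase, was higher (257 against 153 CPM, 0.75), while the Bcl-2 family gene Bcl2l1 was at 0.17.

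Defence genes were higher in part. Of 16 acute-phase and innate defence genes 4 were higher and 2 lower. Complement C3 stood at 94.1 against 42.7 CPM (1.14, 1.01 to 1.27) and the metalloreductase Steap4 at 76.5 against 38.9 CPM (0.98), whereas the abundant Lcn2 was at 0.15. Saa1 was past the fold through 8 cells, of which 1 gave 67.0% of its UMIs, and Serpina3g (0.94) was the fourth. Wfdc18 (-0.88) and Plau (-0.74) were the lower genes. Wfdc18 was counted in 8.82% of cells in both groups, and without the richest cell of each group it was within 1.5-fold, at -0.39. Of 24 antigen presentation genes 4 were higher and none lower: the peptide transporter Tap2 (65.1 against 31.9 CPM, 1.03), the immunoproteasome subunit Psmb10 (66.6 against 36.9 CPM, 0.85), the peptide editor Tapbpl (0.82) and the class I transactivator Nlrc5 (0.60). The MHC light chain B2m was at -0.05. Of 19 interferon response genes 3 were higher, the GTPase Gbp2 (37.7 against 14.5 CPM, 1.37), the transcription factor Irf1 (712 against 465 CPM, 0.62) and Xaf1 (0.60), with a list median of 0.38. Ifi47, an interferon-induced GTPase outside this list, stood at 41.0 against 15.9 CPM (1.37). Of the 19 measured genes of the interferon list, 18 had a log2 ratio above 0, most of them within 1.5-fold. Irf7 (0.08) and Ifit1 (-0.47) were not among the genes past the fold. Of 22 immediate early genes, which dissociation of tissue also induces, Atf3 was higher (3734 against 2323 CPM, 0.68) and the list median was 0.18. None of 14 heat shock genes passed the fold.

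The 12 genes with the highest log2 ratio at a mean of 20 CPM or more held several of those named above (Cxcl10, Gbp2, Ifi47, Has2, Cd70 and Relb). The others were Rrad, a small GTPase relative (74.0 against 17.5 CPM, 2.08, with 17.2% of UMIs in a single cell), Trim47 (33.5 against 8.91 CPM, 1.91, 1.67 to 2.16), Sema4c, a semaphorin (122 against 49.5 CPM, 1.3), Rgs16, a regulator of G protein signalling (1.26), cyclin D1 or Ccnd1 (126 against 54.8 CPM, 1.2) and the endothelial lipase gene Lipg (75.8 against 33.8 CPM, 1.17). Trim47 was counted in 32.1% of selected and 12.5% of matched cells, and Sema4c in 70.4% and 45.1%.

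**Figure D2:**
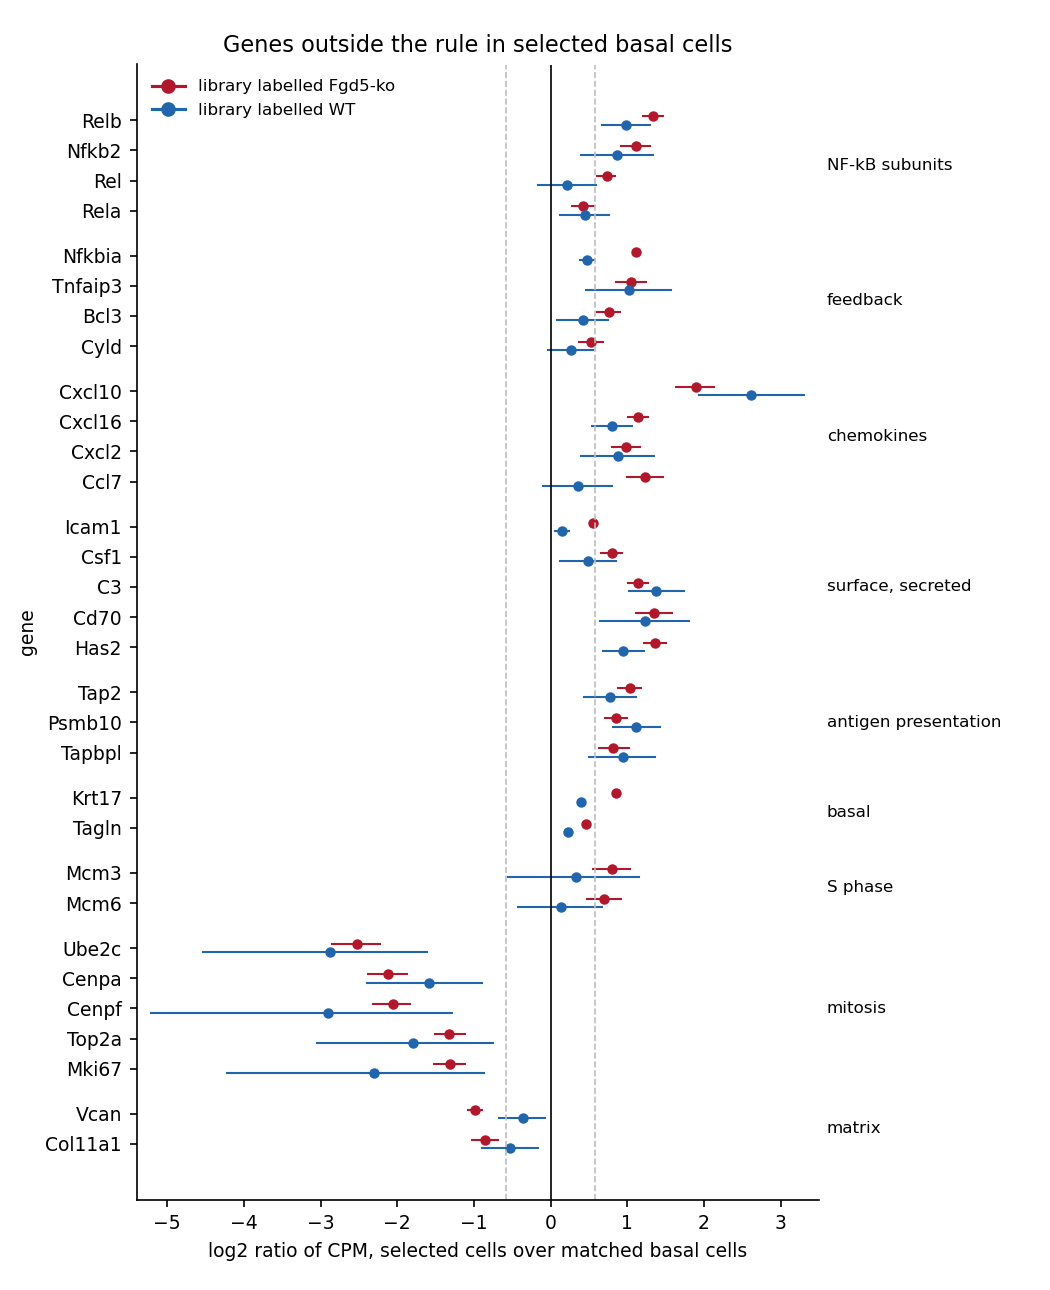
Log2 ratio of CPM, selected over matched basal cells (x axis), for genes outside the rule, by role, in the library labelled Fgd5-ko (red) and with the same rule in the library labelled WT (blue). Points are ratios of summed UMIs, lines are 95% intervals for counting error, and dashed lines mark 1.5-fold. Relb (1.34 and 0.98), Cxcl16 (1.14 and 0.80) and C3 (1.14 and 1.38) lie right of 0 in both libraries, and Ube2c (-2.53 and -2.88) lies left. In the library labelled WT, Ube2c had 5 UMIs in the selected cells, and 2 genes of the G2/M list reached a mean of 5 CPM.

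Genes of mitosis were lower in the selected cells. Some genes of early S phase were higher, but the median of the S phase list depended on which cells were included. Every one of the 19 measured genes listed for G2/M was past 1.5-fold on the lower side, with a median log2 ratio of -1.45. Ube2c, a ubiquitin-conjugating enzyme of mitotic exit, stood at 10.1 against 58.3 CPM (-2.53, -2.85 to -2.23), the centromere histone Cenpa at 14.8 against 64.5 CPM (-2.12) and the kinetochore gene Cenpf at 16.5 against 69.1 CPM (-2.06). Below a mean of 20 CPM, Ccnb1 (-2.31), Nusap1 (-2.29) and Hmmr (-2.21) were also lower. Top2a stood at 26.3 against 65.5 CPM (-1.32) and Mki67 at 24.2 against 59.9 CPM (-1.31). Kinetochore and spindle genes Cenpe (-1.85), Spc24 (-1.51), Prc1 (-1.39) and Cdca8 (-1.37) and the histone genes Hist1h2ae (-1.74), Hist1h3c (-1.50) and Hist1h1b (-1.35) completed the 12 lowest, and the histone genes have close copies, so that their counts are uncertain. Of the S phase list, 18 genes were measured, 5 of them higher by 1.5-fold or more, and Rrm2 (-0.68) lower, with a median of 0.29. This median was -0.04 without cells holding UMIs of endothelial, myeloid, T and NK, B cell or fibroblast markers (Dcn aside). The 5 were the replicative helicase subunits Mcm2 (0.83), Mcm3 (23.2 against 13.4 CPM, 0.80), Mcm5 (0.72) and Mcm6 (27.8 against 17.1 CPM, 0.70) and the helicase loader gene Cdt1 (0.60).

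By cells, 80 of 567 selected cells (14.1%, 11.3 to 17.2) and 371 of 1701 matched cells (21.8%, 19.9 to 23.9) held a UMI of Mki67 or Top2a. The matched cells had the same total UMIs, at medians of 15198 and, in the selected cells, 15201. Few cells carry these transcripts, and a single cell gave 18.9% of the Ube2c UMIs of the selected cells. Among cells without an Mki67 or Top2a UMI, Ube2c was at -1.25, but Prc1 (0.15), Ccnb1 (0.10) and Hist1h3c (0.13) turned, and 84 genes in place of 145 were lower. The 189 higher genes changed little in number, to 186. Relb was then at 1.3 and Nfkbia at 1.06.

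Basal identity genes were mostly within 1.5-fold. The contraction and identity list, which shares Krt5, Krt14, Acta2 and Tagln with the gate, had 1 of 17 measured genes at least 1.5-fold higher and none lower, with a median log2 ratio of 0.30. That gene was Krt17, a keratin of basal and stressed epithelium, at 3995 against 2219 CPM (0.85, 0.83 to 0.87). Tagln (0.46), Tpm2 (0.42) and Myh11 (0.35), of the contractile apparatus, were above 0. All cells had to pass the gate, so the following shares are a description. The 4 gate genes held a median of 1.62% of the UMIs of selected cells and 1.27% of those of matched cells. The luminal keratins Krt8 and Krt18 together held 0.0246% and 0.0238%. With a stricter gate of 1%, 181 genes were higher and 105 lower.

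Matrix and signalling genes moved singly. Of 19 basement membrane and matrix genes 2 were lower, the proteoglycan Vcan (108 against 214 CPM, -0.99, -1.08 to -0.89) and the collagen Col11a1 (35.6 against 64.6 CPM, -0.86), and Col4a1 was at -0.44. The integrin Itga2 (-0.66) was the 1 of 12 integrins past the fold. Of 21 Wnt pathway genes 3 were higher, and all 3 are ligands: Wnt11 (44.0 against 19.7 CPM, 1.16), Wnt4 (0.80) and Wnt10a (98.1 against 60.3 CPM, 0.70). Wnt6, another ligand, was at -0.56. The TGF-beta binding protein Ltbp2 was higher (0.65). Of 13 oxidative stress genes Srxn1 was lower (12.1 against 27.5 CPM, -1.19) and none higher. No gene of the Notch, YAP target, EGF family, glucocorticoid, basal stem-cell or hypoxia lists passed the fold. Csn3 (-1.38) of 5 milk genes and Ly6d (-0.80) of 9 luminal genes were past the fold on the lower side. None of the 5 milk genes was above 0, and their median was -0.48, with Plin2 at -0.53 and Mfge8 at -0.48. Of 11 p53 targets Aen (0.75) was higher and Sesn1 (-0.68) lower, and of 14 genes of the unfolded protein and integrated stress list Asns (0.62) was higher.

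Fgd5 was counted in few cells but more often in the selected ones, at 64 UMIs and 6.79 CPM against 3.82 CPM (0.83, 0.36 to 1.29). It was counted in 10.4% of selected and 5.82% of matched cells. The endothelial marker sum moved with it, at 15 against 9.65 CPM (0.63, 0.33 to 0.93). With all cells left out that held a UMI of endothelial, myeloid, T and NK, B cell or fibroblast markers (Dcn aside), the Fgd5 log2 ratio was 1.06. In the library labelled WT 2 UMIs of Fgd5 in the selected cells allowed no comparison (interval -4.09 to 1.32). No other gene of the 16 measured in the FGD and CDC42 list passed the fold, Cdc42 itself being at 0.08.

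Selected cells were not all alike. By the rule gene with the most UMIs in the cell, 269 cells were led by Vcam1, 143 by Malt1, 48 by Birc3, 37 by Tnip1 and 9 by Nfkbie, and 61 had a tie. Vcam1 is the most counted of the 5, so that this split partly follows abundance. Against their own matched cells, Nfkbia was higher in cells led by Vcam1 (1.01), Malt1 (1.17), Birc3 (0.95) and Tnip1 (1.42). Compared directly, cells led by Vcam1 and by Malt1 stood at 1058 and 1021 CPM of Nfkbia (log2 ratio 0.0514, -0.0196 to 0.12).

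Several named genes differed between those groups beyond counting error, whereas gene lists were not compared between them. Gbp2, an interferon-induced gene, stood at 52.2 CPM in cells led by Vcam1 and 27.9 CPM in cells led by Malt1 (log2 ratio 0.91, 0.50 to 1.32), Ifi47 at 54.1 and 25.3 CPM (1.1, 0.68 to 1.53) and Cxcl10 at 51.5 and 14.6 CPM (1.82, 1.3 to 2.39). A single cell gave 34.0% of the Cxcl10 UMIs of the former group and another 47.1% of those of the latter, and 47.7% of the Gbp2 UMIs of the latter. Relb stood at 96.1 and 62.1 CPM (0.63, 0.36 to 0.91) and C3 at 104 and 75.8 CPM (0.46). Rel (88.7 and 121 CPM, -0.45, -0.67 to -0.22), Nfkbiz (112 and 166 CPM, -0.57) and Lipg (57.1 and 86.1 CPM, -0.59) went the other way. Mki67 stood at 9.52 and 51.4 CPM (-2.43, -2.97 to -1.92) and Hist1h1b at 18.2 and 144 CPM (-2.99), but a single cell gave 65.5% and 36.9% of the Hist1h1b UMIs, and 7.43% and 8.39% of cells held it. Against its own matched cells Mki67 was at -2.75 in cells led by Vcam1 and at -0.0742 (-0.38 to 0.23) in cells led by Malt1. Top2a was at -2.36 and, in cells led by Malt1, at -0.0593 (-0.37 to 0.24). Prc1 was at -3.06 and -0.33 (-0.70 to 0.0252), and Hist1h1b at -3.32 and 0.45 (0.26 to 0.64). Some other mitotic genes were lower in both groups. Ube2c was at -3.72 and, in cells led by Malt1, at -2.23 (-2.77 to -1.74). Cenpa was at -2.73 and -2.01, Cenpe at -2.54 and -1.42, and Cenpf at -3.40 and -1.16. The shares of cells with an Mki67 or Top2a UMI were closer, 12.3% (8.6 to 16.8) and 18.2% (12.2 to 25.5), with intervals that overlap, and a single cell gave 32.5% of the Mki67 UMIs of the Malt1 group.

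**Figure D3:**
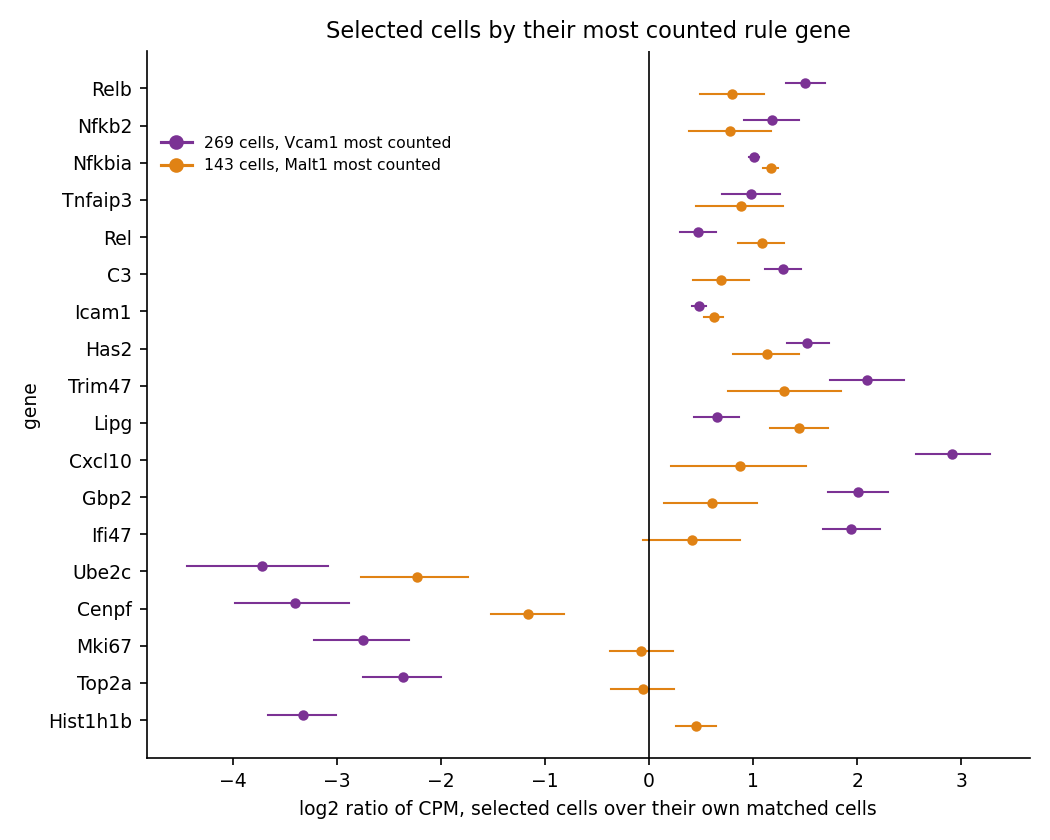
Log2 ratio of CPM over their own matched cells (x axis) for the 269 selected cells with Vcam1 and the 143 with Malt1 as the most counted rule gene. Lines are 95% intervals for counting error. Nfkbia and Tnfaip3 lie close together, whereas Cxcl10 (2.91 and 0.87) and Mki67 (-2.75 and -0.0742) lie apart.

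Levels changed gradually along the whole range of the 5-gene sum. Basal cells were split into 10 classes of rising sum, each drawn evenly from 20 groups of like total UMIs, so that median UMIs lay between 15725 and 15889 in every class. From the lowest to the highest class Nfkbia went from 344 to 1094 CPM and Relb from 21.9 to 87.6 CPM. Over the 10 classes, 470 of 5190 genes whose mean reached 20 CPM had a Spearman rho of at least 0.9 with the class number and 423 a rho of at most -0.9. All points share the library, and this describes their order only. Of the genes outside the rule with a rho of 1, the 10 with the largest ratio of the highest to the lowest class were Nfkb2 (13.8 to 42.9 CPM), Krt17 (1595 to 3933 CPM), Clca3a2, Sod2 (115 to 251 CPM), Stat5a, Pnrc1, Icam1 (308 to 603 CPM), the endopeptidase gene Mme, the matrix gene Postn and Adamts18, while Ier2, Tagln and Myh11 also had a rho of 1. Ube2c went from 145 to 12.8 CPM and Mki67 from 125 to 28.7 CPM.

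**Figure D4:**
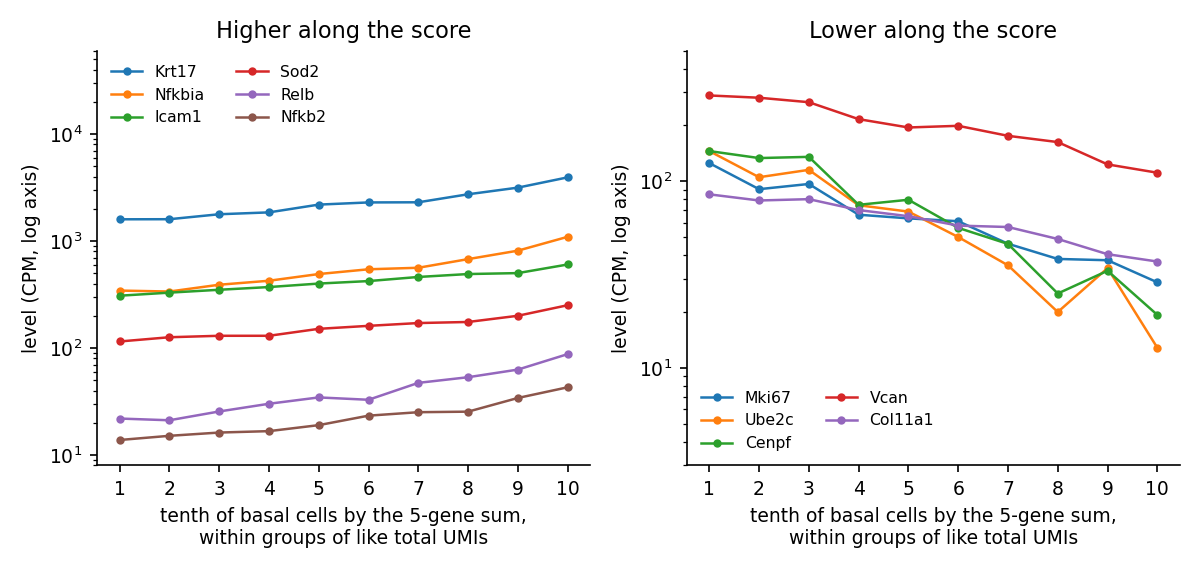
Levels (CPM, log axis) of genes over 10 classes of the basal cells (library labelled Fgd5-ko), ordered by the 5-gene sum within groups of like total UMIs (x axis). Krt17, Nfkbia, Icam1, Sod2, Relb and Nfkb2 (left) climb over most or all of the range, and Mki67, Ube2c, Cenpf, Vcan and Col11a1 (right) descend over most of it.

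In the authors' t-SNE map the selected cells were spread over most of the basal cells, with a denser patch near the centre. Of the 15 basal cells nearest to a selected cell in the map, 23.8% on average were selected too, against 8.45% around other basal cells and 10.0% of all. In 103 selected cells none of the 15 neighbours was selected. The map was made from the expression of these cells, the rule genes possibly included, and is no independent measure.

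**Figure D5:**
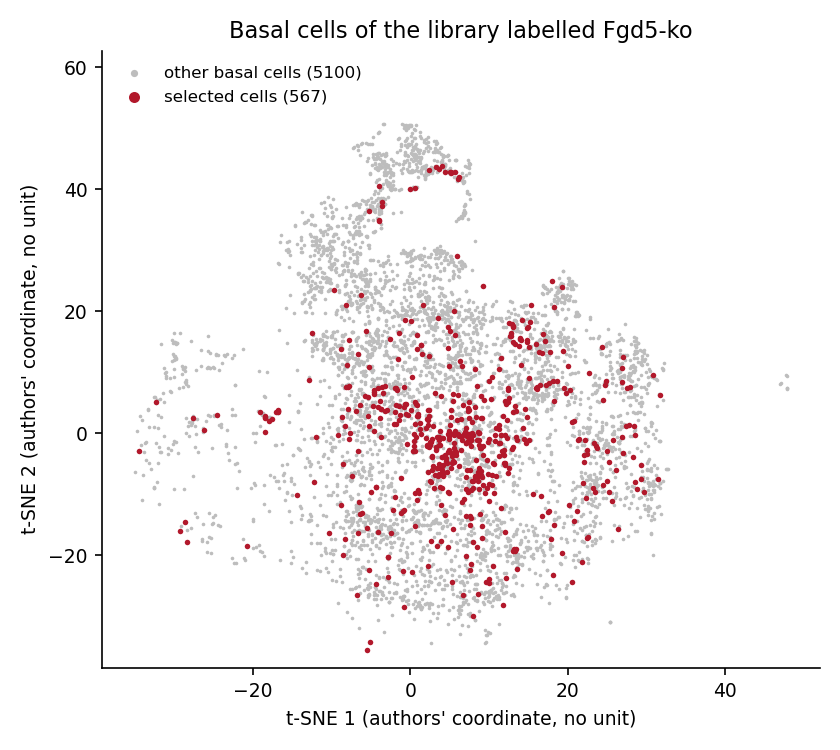
The authors' t-SNE coordinates (no unit) of the 5667 basal cells of the library labelled Fgd5-ko, with the 567 selected cells in red. Selected cells lie over much of the map and most densely near its centre.

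The same rule in the library labelled WT gave 606 of 6065 basal cells, but at a lower level. The cutoff was 273 CPM, and 4348 basal cells (71.7%) had no UMI of the 5 genes, at a median of 4806 UMIs in the selected cells. At the lower quartile of the selected cells, 3391 UMIs, a single UMI of a rule gene is enough to pass this cutoff. With every cell thinned to 4000 UMIs (18 and 1769 listed cells were too shallow), 703 of 5569 basal cells in the library labelled Fgd5-ko (12.6%, 11.8 to 13.5) and 98 of 4452 in the library labelled WT (2.2%, 1.79 to 2.68) held at least 3 UMIs of the 5 genes. Unthinned, Vcam1 stood at 90.1 and 39.6 CPM over all basal cells, and Birc3 at 45.5 and 11.9 CPM. With 1 library each, genotype and library cannot be told apart.

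Much of the pattern had the same direction in the library labelled WT, whose cells the choice in the other library did not use. There 116 of 7114 genes (1.63%) were at least 1.5-fold higher and 63 (0.886%) lower at a mean of 10 CPM, and 268 of 9103 (2.94%) and 201 (2.21%) at a mean of 5 CPM. Of 6858 genes measured in both libraries, 137 were higher in the selected cells of the library labelled Fgd5-ko and 96 in those of the library labelled WT, and 32 were on both lists (23.4% and 33.3% of them). Of the 137 genes, 129 (94.2%) had a log2 ratio above 0 in the library labelled WT. Of all 6858 genes, 57.1% had a log2 ratio above 0 there. Among the 32 were Relb, Nfkb2, Tnfaip3, Tank, Cxcl2, Cxcl10, Cxcl16, Cx3cl1, C3, Cd70, Has2, Trim47, Tap2, Psmb10, Tapbpl and Wnt10a. In the selected cells of the library labelled WT a single cell gave 38.7% of the Cxcl2 UMIs and a single cell 25.4% of the Cxcl10 UMIs. Ratios without these cells were not computed there. Of 83 lower genes 24 were lower in both (28.9%, and 42.9% of 56), and 64 (77.1%) had a log2 ratio below 0 in the library labelled WT, as had 42.9% of all 6858 genes. Among the 24 were Cenpa, Hist1h2ae, Col9a1, Cdkn1c and the matrix genes Dcn and Fbln2.

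By role, the chemokines (4 of 10 higher, median 0.45) and NF-kB subunits (2 of 5, median 0.45) had a smaller median in the library labelled WT and antigen presentation a larger one (9 of 20, median 0.53, against 0.32). Nfkbia was within 1.5-fold there (464 against 335 CPM, 0.47, 0.38 to 0.56), as was Icam1 (0.15). Cxcl10 was at 2.61 (1.94 to 3.30), with 25.4% of its 59 UMIs in a single cell, C3 at 1.38 and Psmb10 at 1.12. These ratios compare cells of unequal depth and level. In the cells with at least 3 rule UMIs at 4000 UMIs per cell, Nfkbia was at 0.53 in the library labelled Fgd5-ko and 0.56 in the library labelled WT. Relb was then at 0.83 and 1.39, Cxcl16 at 0.65 and 1.07, Has2 at 0.99 and 1.44 and C3 at 0.70 in both. Past 1.5-fold were 17 genes higher and 11 lower of 2577, and 128 higher and 52 lower of 2317, the latter from 98 cells. These counts cover fewer genes than those at a mean of 10 CPM (7731 and 7114) and are not comparable with them. In the cells with at least 3 rule UMIs, the ratios of Nfkbia, Relb and Cxcl16 were not smaller in the library labelled WT. This choice changed the depth and also the share of basal cells kept (12.6% labelled Fgd5-ko, 2.2% labelled WT). The part of each was not tested. At the 582 CPM cutoff of the other library, 141 cells (2.32%) of the library labelled WT remained, in which Relb was at 1.69 (1.12 to 2.26) and Nfkbia at 0.60 (0.42 to 0.78). Rgs16 (-0.84, -2.14 to 0.26) and Lipg (-0.27, -0.93 to 0.35) were not above 0 in that library. The myeloid marker sum of its selected cells stood at 73.2 against 21.1 CPM, counted in 7.10% and 6.60% of cells, and the part of these UMIs in its ratios was not tested.

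Markers of immune cells were scarce in the selected cells of this library, labelled Fgd5-ko, whereas those of some other cell types were common in selected and matched cells alike. Of 10 myeloid markers 7 had UMIs, at a sum of 5.83 against 8.03 CPM in matched cells, and Csf1r, Adgre1 and Itgam were at 0. T and NK markers stood at 1.48 against 1.1 CPM, with Cd3d, Cd3g, Nkg7, Gzma and Ptprc at 0, and B cell markers at 2.55 against 4.99 CPM, with Ms4a1 and Ighm among those at 0. A count of 0 allows up to 3 UMIs. The fibroblast sum stood at 158 against 266 CPM, of which Dcn gave 1335 of 1485 UMIs, and was counted in 58.9% and 70.5% of cells. Hormone-sensing luminal markers were counted in 21.7% and 24.5% of cells. Of 8 endothelial markers 7 had UMIs, and the sum was counted in 12.2% of selected and 11.5% of matched cells. Adipocyte markers stood at 3.5 against 1.06 CPM in 0.882% and 1.76% of cells. Pericyte (12.3 against 11.9 CPM) and Schwann cell markers (168 against 169 CPM, in 86.6% and 87.9% of cells, Cnp giving 840 of 1582 UMIs) were close in level. With all cells left out that held UMIs of endothelial, myeloid, T and NK, B cell or fibroblast markers (Dcn aside), 3393 basal cells remained and 215 genes were higher and 139 lower. Relb was then at 1.22, Cxcl16 at 0.96, C3 at 1.09 and Vcam1, left out of the rule, at 1.3.

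Numbers of detected genes were close, whereas the shares of mitochondrially encoded and ribosomal protein UMIs were lower in the selected cells. The upper quartile of the ribosomal protein share was 23.5% in selected and 26.4% in matched cells. Selected and matched cells had medians of 3695 and 3636 detected genes, 4.23% and 4.71% of mitochondrially encoded UMIs and 21.3% and 23.7% of UMIs from ribosomal protein genes.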

How the data were processed

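The authors deposited a matrix of raw, unnormalized UMI counts for each library, whose header gives software version 3.1.0. Tools and build named in the submitters' processing notes were Cell Ranger, Seurat 3.0 and mm9. A further table deposited by the authors lists the cells with their t-SNE position, a score with no unit, and the barcode suffix gives the library. How the listed cells were chosen, and which annotation was used, the sources used here do not say. A UMI stands for a molecule, so amplification copies add nothing, and tags near the 3' end leave most exons unseen.

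Here the counts were summed over selected and matched cells and divided by the sum of all UMIs to give CPM. Ratios have exact conditional intervals, shares have Clopper-Pearson intervals, both at 95%. Matching took, for each selected cell in order of falling UMIs, the 3 nearest unused cells. No doublet caller was run, so any doublets remain. Selected cells had 3792 to 36903 UMIs. The calculation of ratios was tested on simulated summed counts with counting error only. These had no spread between cells, so the intervals were not tested against such spread. Software was pandas 2.3.3, SciPy 1.17.1, NumPy 2.4.6 and matplotlib 3.10.9 under Python 3.11.15.

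The cells, the gene lists and the tests were chosen with earlier results of these data known. Named genes are the rule genes, Fgd5, the 12 highest and 12 lowest log2 ratios at a mean of at least 20 CPM (without mt-, Rpl, Rps, haemoglobin, Gm-numbered and Rik genes), up to 4 genes of each of 32 lists that lay farthest from matched cells at 10 CPM or more, and the 10 genes most like the sum. Other genes named, such as list members past the fold at 5 to 10 CPM and members near 0, were picked after their values were seen. Cxcl11 was the 1 listed symbol with no match. Some results are not reported here. At 4000 UMIs per cell the sums tie, so cells with at least 3 rule UMIs were taken in place of the top 10%. Tied sums of 0 in the 10 classes were ordered by their place in the table. The alternatives tried changed the matching, the share kept, the sum, the depth range, the gate, the scaling and the minimum level.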

Additional observations from a re-analysis of the deposited data

Results flagged for a closer look

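The direction differed between the libraries for 2 named genes, each with both intervals away from 0; these differences were not tested. Alcam, an adhesion molecule, had, in the library labelled Fgd5-ko, a log2 ratio of 0.53 (0.26 to 0.79). In the library labelled WT it was at -0.91 (-1.77 to -0.13), from 16 UMIs in the selected cells. Wfdc18, a secreted protease inhibitor relative, was at -0.88 (-1.27 to -0.51) and 0.56 (0.28 to 0.83), respectively. Without the richest cell of each group, an alternative chosen after seeing the data, Wfdc18 was at -0.39 in the library labelled Fgd5-ko. In the library labelled WT a single cell gave 32.3% of the Wfdc18 UMIs of the selected cells. The ratio without that cell was not computed, so the opposite direction may rest on it.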

How the results depend on the processing

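Of 74 named genes at least 1.5-fold from matched cells, 60 to 74 remained so and 69 to 74 kept their sign under 18 alternatives. Of the 5 without the sign when cells holding Mki67 or Top2a are left out, 2 are those genes, which are then at 0 by construction. The 189 higher genes became 285 (top 5%), 122 (top 20%), 688 (20 UMIs as the only minimum) and 55 (mean of 50 CPM), and the 145 lower genes 987 and 23 at those minimums and 84 without cells holding Mki67 or Top2a. Other counts stayed within 1.5 times. Left-out Birc3 (1.24) moved to 1.37 (top 5%), 0.95 (top 20%) and 1.41 (middle range of UMIs), Vcam1 (1.31) to 1.49, 1.11, 1.47 and 1.21 (gate of 1%), Tnip1 (1.61) to 1.80 (top 5%), 1.31 (top 20%) and 1.44 (1 matched cell), Nfkbie (1.59) to 1.84 (middle range) and 1.39 (gate of 1%), and Malt1 (0.74) to 0.60 (1 matched cell), 0.62 (gate of 1%) and 0.61 (without Mki67 or Top2a). Reversed were Hist1h3c (0.13), Prc1 (0.15) and Ccnb1 (0.10) without cells holding Mki67 or Top2a, Prc1 (0.24) in the middle range of UMIs, and Ccl7 (-0.09) with Tnip1 out of the sum and at a gate of 1% (0.00). The cause was not tested. Counts of genes were not recomputed for the 141 cells past the common cutoff in the library labelled WT. Genes under 5 CPM were too sparse to describe, and no paired analysis was possible because each group has 1 sample.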

Other observations

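Some genes outside the naming rule, chosen after their values were seen, were among the most unlike between selected and matched cells of the library labelled Fgd5-ko. The transcript 1600014C10Rik stood at 219 against 592 CPM (-1.43, -1.50 to -1.37) and was counted in 43.7% against 69.4% of cells. In cells led by Vcam1 it stood at 148 CPM and in cells led by Malt1 at 372 CPM. In the library labelled WT it had 11 UMIs in the selected cells. Cdkn1c, an inhibitor of cyclin-dependent kinases, stood at 7.21 against 22.7 CPM (-1.65, -2.03 to -1.29), and the cartilage-type collagen Col9a1 at 9.97 against 28.0 CPM (-1.49). In the library labelled WT they were at -0.81 and -1.81. The prostaglandin transporter Slco2a1 was higher in both libraries (259 against 133 CPM, 0.96, and 0.87), as were the parathyroid hormone-like Pthlh (61.0 against 29.4 CPM, 1.05, and 0.60), the keratin Krt42 (0.98 and 1.43) and the inflammatory caspase Casp4 (106 against 54.9 CPM, 0.95, and 0.77). The imprinted transcription factor Plagl1 stood at 20 against 7.36 CPM (1.45, 1.15 to 1.74) and at 12.3 against 5.19 CPM (1.25, 0.59 to 1.89).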
